A study of Mus musculus with 26 samples.

Results

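Livers of mice with a homozygous knockout of Mtarc1 (8 libraries) were compared with livers of wildtype mice (6 libraries), all on the same diet. These 14 of the 26 mouse liver RNA sequencing libraries of the study were chosen by their sample titles alone. The diet was CDAHFD, a feed high in fat that lacks choline and supplies protein as defined L-amino acids. Given here for 2 weeks, it is a standard way to produce a fatty, inflamed and early scarring liver in mice. The remaining libraries, which share the estimate of the spread in the test and are otherwise given only as values, came from Mtarc1 heterozygous knockout mice on CDAHFD (7) and from wildtype mice on control chow (5). No knockout livers on chow were analysed here, so differences that the genotype makes without CDAHFD, and differences in the response to CDAHFD, cannot be told apart. The labels do not say which stretch of the gene was removed, whether the knockout was limited to some cells, or the strain, sex and age of the mice.

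The Mtarc1 protein, mitochondrial amidoxime reducing component 1 (mARC1), is a molybdenum-containing reductase of the outer mitochondrial membrane that receives electrons from NADH through cytochrome b5 reductase and cytochrome b5. Common variants of the human gene are linked to lower risk of fatty liver and cirrhosis. In a liver deprived of choline, phosphatidylcholine runs short, hepatocytes retain triglyceride, macrophages take up lipid, and stellate cells turn into myofibroblasts that lay down collagen. The question of the comparison is how the liver transcriptome on this diet differed when both copies of Mtarc1 were knocked out.

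The 14 libraries held 19.73 to 29.62 M (mega) estimated counts, with a mean of 24.9 ± 1.86 M (SD, n = 6) in wildtype and 24.1 ± 3.06 M (SD, n = 8) in homozygous livers. Levels below are CPM, counts per M after TMM scaling, a correction for differences in library composition. The labels do not say that each sample is a separate animal, so each p-value reflects only how these samples vary, part of which may be technical. In whole liver, fewer cells of a type and less RNA per cell cannot be told apart. The library names fall into a lower range of numbers (3 wildtype libraries, 9931 to 9993, and 2 homozygous libraries, 9975 to 9988) and a higher range (3 wildtype libraries, 11066 to 11074, and 6 homozygous libraries, 11001 to 11143). These numbers are not labelled as batches. Values within each range are given for some genes and lists only, so a value printed without them may differ between the ranges. Hepatocyte transcripts dominated every library, with Alb, which encodes albumin, between 41448 and 75178 CPM. Xist lay between 724 and 1062 CPM and no Y-linked gene measured (Ddx3y, Uty, Kdm5d, Eif2s3y) exceeded 1.56 CPM, the pattern of female tissue.

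The targeted gene was measured first. Mtarc1 lay at 193, 231 and 291 CPM (lowest, median, highest) in wildtype livers and at 33.4, 48.8 and 65.3 CPM in homozygous livers. The highest homozygous library was below the lowest wildtype library. The means were 235 ± 40.7 CPM (SD, n = 6) and 48.7 ± 10.4 CPM (SD, n = 8), so homozygous livers retained 20.7% of the wildtype level, and a two-sided exact permutation test gave p = 0.000666, the smallest it can give at these group sizes. Within the lower-numbered libraries the retained level was 24.8% (exact permutation p = 0.2, the smallest possible there) and within the higher-numbered ones 18.6% (exact permutation p = 0.0238, again the smallest possible). Heterozygous livers held 161 ± 33.7 CPM (SD, n = 7) and wildtype chow livers 305 ± 40.2 CPM (SD, n = 5). The plot of both mARC genes by library shows these levels.

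**Figure D1:**
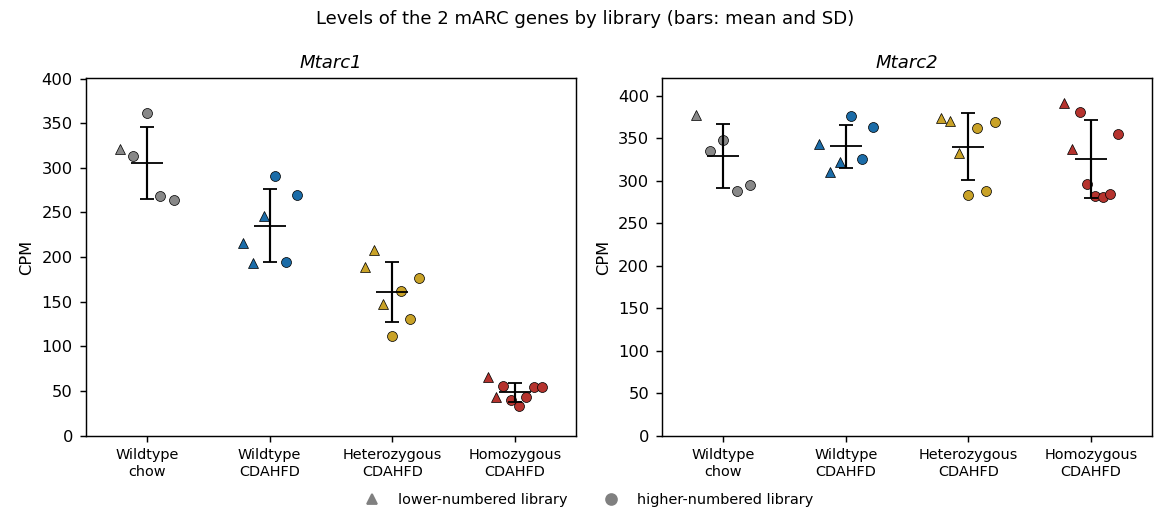
Levels of Mtarc1 and Mtarc2 in CPM (y axis, from 0) in each library of the 4 groups (x axis). Triangles are lower-numbered and circles higher-numbered libraries, and black bars are the mean and SD; the 8 homozygous libraries lie between 33.4 and 65.3 CPM for Mtarc1, under all others, while Mtarc2 overlaps between groups.

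Because Salmon, the counting tool, divides reads between similar transcripts and the removed stretch is not stated, the remaining Mtarc1 level cannot be assigned to an intact or a truncated transcript. Mtarc2, the neighbouring paralog with the same reductase chemistry, lay at 310, 335 and 377 CPM in wildtype and 281, 317 and 391 CPM in homozygous livers, with overlapping groups and a log2 fold change of -0.06 ± 0.10 (SE). Of the other tested genes beside Mtarc1, C130074G19Rik had a log2 fold change of -0.03 ± 0.15 (SE) and 1700056E22Rik one of -0.29 ± 0.25 (SE). Hlx, a homeobox gene nearby, was at -0.38 ± 0.15 (SE, unadjusted p = 0.0163). The electron donors of the enzyme lay near the wildtype level, with Cyb5b, the outer membrane cytochrome b5, at 0.20 ± 0.22 (SE) and Cyb5r3, its reductase, at 0.06 ± 0.09 (SE) on the log2 scale. Of 9 genes for molybdenum cofactor synthesis and other molybdoenzymes, 8 had a log2 fold change above 0, against 51.6% of all tested genes. So had 14 of 16 hepatocyte plasma protein genes. The median of the 9 was 0.12, and 1 had an unadjusted p under 0.05. That gene, Mocs1, which carries out the first step of cofactor synthesis, was at 0.24 ± 0.09 (SE, unadjusted p = 0.016).

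Across 17104 tested genes, Mtarc1 alone passed edgeR's quasi-likelihood test at a Benjamini-Hochberg adjusted p under 0.05 (0.00585% of tested genes), with a log2 fold change of -2.27 ± 0.15 (SE) and an adjusted p of 8.02e-11. At an unadjusted p under 0.05, 1038 genes were lower (6.07%) and 667 higher (3.90%) in homozygous livers; scaled by library totals alone, the split was 1135 lower and 406 higher. DESeq2, another count model, called 61 genes among the 13124 to which it gave an adjusted p, 55 lower (0.419%) and 6 higher (0.0457%). Without the low-count filter it called 47, of which 46 were among the 61. The limma voom method called 1 gene, Mtarc1. Fam129b joined the edgeR calls without wildtype library 1, Rgs1 without wildtype library 5, and Acta2, Fam129b and Tagln without wildtype library 4.

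Genes that did not pass edgeR's test are therefore described by their levels and by whether the groups overlapped. Homozygous livers lay wholly below wildtype livers for 16 genes (0.0935% of tested genes) and wholly above them for 8 (0.0468%). The 16 lower genes were Mtarc1, Tagln, Fam129b, Cst3, Efemp2, Cpz, Itga11, Mmp23, Cmtm3, Crlf2, Il3ra, P2ry10b, Slc43a2, Arhgap10, Polr3gl and Rps9, and those not described below are named only because the count is printed. Of these, Efemp2 encodes an elastic fibre protein, Itga11 the alpha chain of a collagen-binding integrin, and Tagln an actin-binding protein of smooth muscle and myofibroblasts. The 8 higher genes were Mid1ip1, Rtp3, Scfd2, Fam168a, Gm5093, Hus1, Rassf7 and Zbtb7b.

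**Figure D2:**
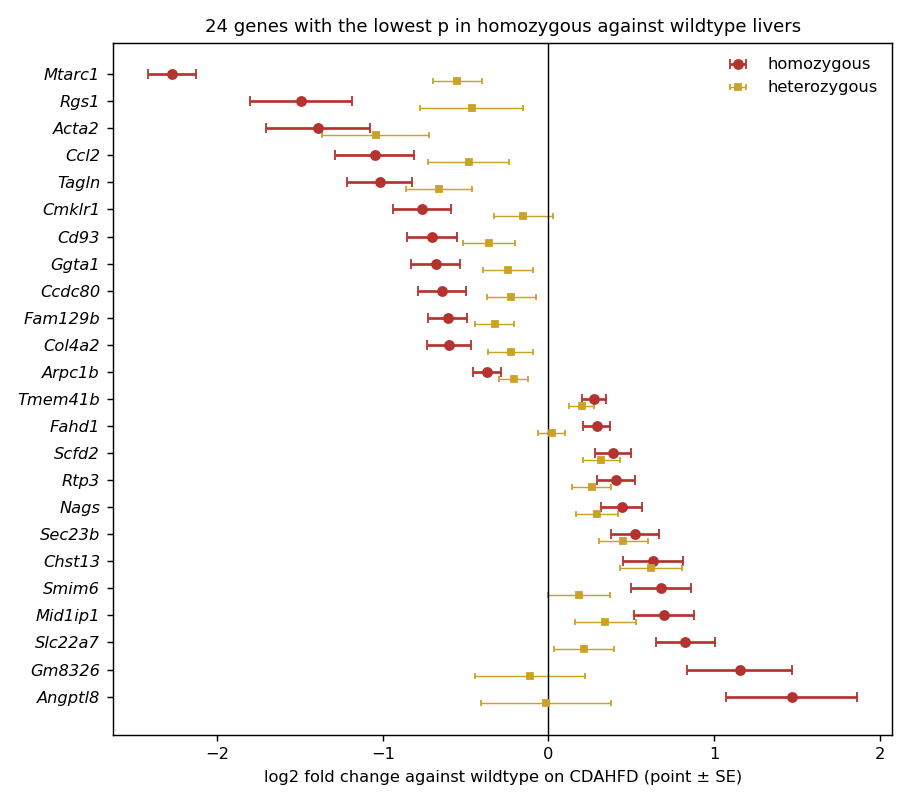
Log2 fold change against wildtype on CDAHFD (x axis, point ± SE) for the 12 lower and 12 higher genes with the lowest unadjusted p in homozygous livers (y axis). Red circles are homozygous and yellow squares heterozygous livers, both set against the same 6 wildtype libraries; the values run from -2.27 (Mtarc1) to 1.47 (Angptl8) in homozygous livers.

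Contractile and cytoskeletal genes of myofibroblasts were lower by value. Tagln, or transgelin, lay at 18.1, 22.3 and 47.9 CPM in wildtype and 10.8, 14.5 and 17.8 CPM in homozygous livers, so the groups did not overlap. Its log2 fold change was -1.02 ± 0.20 (SE), with an adjusted p of 0.103 by edgeR and 0.00351 by DESeq2. Acta2, the smooth muscle actin by which myofibroblasts are recognised, lay at 3.27, 7.60 and 22.7 CPM in wildtype and 2.73, 3.89 and 6.63 CPM in homozygous livers, overlapping, with a log2 fold change of -1.39 ± 0.31 (SE, adjusted p = 0.165 by edgeR). For both genes the highest wildtype values were those of libraries 2 and 3. Acta2 was at -1.94 in lower-numbered libraries, -0.48 in higher-numbered ones and -0.62 without wildtype libraries 2 and 3. Tagln was at -1.33, -0.46 and -0.51 in these settings. All 13 tested members of the contractile list (of 15 listed) had a log2 fold change below 0 and 9 an unadjusted p under 0.05, with a median of -0.44 beside 0.01 over all tested genes, of which 48.4% were below 0. The list's median was -0.66 within the lower-numbered libraries, -0.09 within the higher-numbered ones and -0.16 without wildtype libraries 2 and 3. Members of this and all other lists were chosen with earlier results of these data known, so list counts describe and do not test.

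Among the other contractile members, Myl9, the regulatory light chain of smooth muscle myosin, was at -0.62 ± 0.19 (SE), Flna, an actin crosslinker, at -0.45 ± 0.13 (SE) and Cnn2, a calponin, at -0.38 ± 0.12 (SE) on the log2 scale. The groups of each overlapped. Genes of this kind are classical targets of serum response factor, which binds the CArG box. In RefSeq promoters of GRCm38.p6, the 250 bases before the gene's start were searched on both strands for the CArG box by its name's consensus. It was found in 2 of the 12 contractile genes with an entry (16.67%) and in 439 of 27025 genes (1.62%). These 2 promoters are shown with the match in capitals, 5′ to 3′ on the plus strand, because they are the ones among those 12 that hold it. A match is a description of letters, not a binding site, and an enrichment was not tested. The other promoters searched, that of Acta2 among them, lack these exact letters in the window, which says nothing of the factor. Tagln had no promoter entry and was not searched.
Myl9 (GRCm38.p6, chr2:156775214-156775463): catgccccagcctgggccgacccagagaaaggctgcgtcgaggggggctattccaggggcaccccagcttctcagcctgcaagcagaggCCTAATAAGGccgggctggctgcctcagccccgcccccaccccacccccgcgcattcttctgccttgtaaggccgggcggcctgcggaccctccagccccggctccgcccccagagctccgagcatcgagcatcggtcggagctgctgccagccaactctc
Cnn2 (GRCm38.p6, chr10:79988350-79988599): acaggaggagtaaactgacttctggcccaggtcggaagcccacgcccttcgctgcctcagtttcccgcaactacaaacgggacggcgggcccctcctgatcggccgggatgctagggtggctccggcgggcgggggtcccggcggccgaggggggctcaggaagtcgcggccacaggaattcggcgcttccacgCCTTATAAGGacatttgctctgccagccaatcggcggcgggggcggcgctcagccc

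Collagens and other scar matrix genes had lower levels in most members. Col3a1, a fibrillar collagen of young scar, lay at 123, 142 and 335 CPM in wildtype and 82.0, 109 and 129 CPM in homozygous livers. Of the 8 homozygous libraries 7 were below the lowest wildtype library, and the wildtype maximum came from libraries 2 and 3, at 273 and 335 CPM. The log2 fold change of Col3a1 was -0.81 ± 0.19 (SE, adjusted p = 0.165 by edgeR and 0.0296 by DESeq2), at -1.12 in lower-numbered and -0.30 in higher-numbered libraries. Col1a2, a chain of collagen type I, was at -0.80 ± 0.20 (SE), Col5a1, which sets fibril diameter, at -0.54 ± 0.13 (SE) and Sparc, a collagen-binding matrix protein, at -0.61 ± 0.14 (SE). DESeq2 called these 4 among the 22 scar matrix genes tested, Col5a1 no longer without the low-count filter (adjusted p = 0.0554). Of the 22, 20 were below 0 and 16 had an unadjusted p under 0.05 in the lower direction, with a median log2 fold change of -0.45, or -0.15 without wildtype libraries 2 and 3.

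Enzymes that crosslink or cut the matrix gave similar values. Loxl2, a collagen crosslinking oxidase, lay at 8.91, 10.4 and 23.5 CPM in wildtype and 7.34, 8.44 and 9.46 CPM in homozygous livers, a log2 fold change of -0.67 ± 0.16 (SE, DESeq2 adjusted p = 0.0391). Adamts2, which trims procollagen, was at -0.60 ± 0.15 (SE). Lox, a related oxidase, was at -1.17 ± 0.33 (SE), yet at 0.13 within the higher-numbered libraries. Mmp12, the macrophage elastase, ranged widely, from 12.3 to 85.9 CPM in wildtype and from 3.97 to 33.9 CPM in homozygous livers, at -1.58 ± 0.43 (SE). Mmp12 was at -2.63 in lower-numbered libraries, -0.53 in higher-numbered ones and -0.77 without wildtype libraries 2 and 3. The list of 16 remodelling genes had 12 members lower at an unadjusted p under 0.05 and a median of -0.48, which was -0.86 in lower-numbered and -0.04 in higher-numbered libraries. Basement membrane genes, the sheet under epithelium and vessels, had 6 of 11 members lower at that p, led by Col4a2 at -0.60 ± 0.13 (SE, DESeq2 adjusted p = 0.0296), with Col4a1 at -0.55 ± 0.15 (SE). The basement membrane median was -0.51 in lower-numbered libraries, -0.11 in higher-numbered ones and -0.12 without wildtype libraries 2 and 3, and Col4a2 was at -0.80, -0.33 and -0.32 in these settings.

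**Figure D3:**
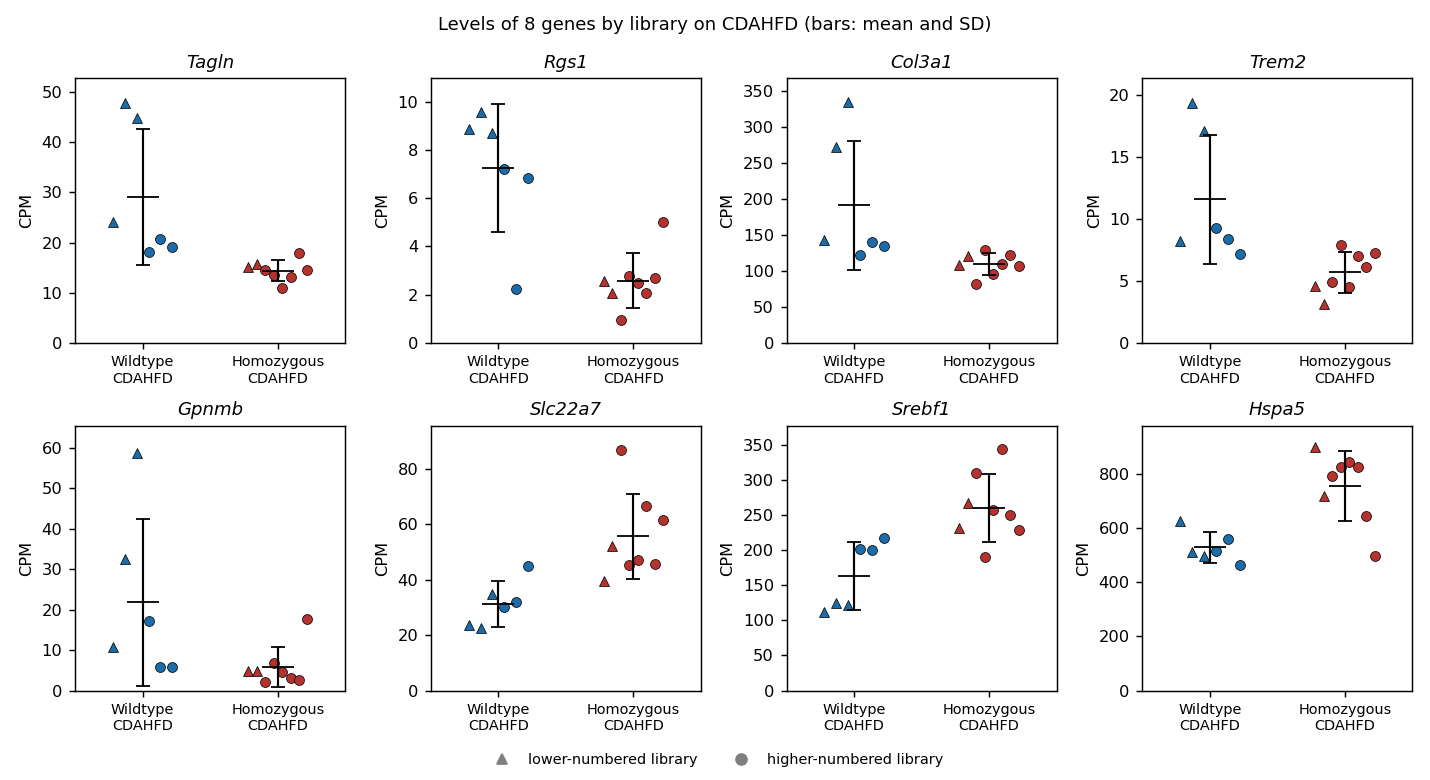
Levels in CPM (y axes, from 0) of 8 genes in each wildtype and homozygous library on CDAHFD (x axes). Triangles are lower-numbered and circles higher-numbered libraries, and black bars are the mean and SD; Tagln does not overlap between the groups, Col3a1 and Trem2 are highest in a pair of lower-numbered wildtype libraries, and 7 of 8 homozygous libraries exceed every wildtype library for Slc22a7, Srebf1 and Hspa5.

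Genes that mark stellate cells themselves, the vitamin A storing cells from which myofibroblasts arise, differed less in size. Hand2, a transcription factor of these cells, lay at 9.49, 11.2 and 12.2 CPM in wildtype and 6.96, 7.79 and 11.8 CPM in homozygous livers. Only 1 homozygous library reached the wildtype range, and the log2 fold change was -0.41 ± 0.13 (SE, adjusted p = 0.277 by edgeR). Pdgfrb, a growth factor receptor of stellate cells, was at -0.36 ± 0.12 (SE), Dcn, or decorin, at -0.34 ± 0.13 (SE) and Colec11, a collectin, at -0.32 ± 0.13 (SE). Of the 15 stellate genes, 14 were below 0 and 7 had an unadjusted p under 0.05, with a median of -0.33 that was -0.47 in lower-numbered and -0.21 in higher-numbered libraries. Their summed level ran from 464 to 543 CPM in wildtype and from 329 to 476 CPM in homozygous livers. Its part in the matrix values was not tested. In the TGF-beta pathway, the main driver of collagen synthesis in these cells, 5 of 16 genes were lower at that p. The list's median was -0.29, but -0.55 in lower-numbered libraries, 0.01 in higher-numbered libraries and -0.02 without wildtype libraries 2 and 3. Ccn2, a matricellular target of the pathway, was at -0.95 ± 0.25 (SE), Tgfb1, the ligand, at -0.44 ± 0.15 (SE) and Tgfbi at -0.35 ± 0.12 (SE).

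Markers of lipid-associated macrophages were all below 0. These cells gather around fat-laden hepatocytes and clear lipid and debris. Trem2, their lipid-sensing receptor, lay at 7.14, 8.85 and 19.4 CPM in wildtype and 3.12, 5.54 and 7.87 CPM in homozygous livers, with 6 of 8 homozygous libraries below the lowest wildtype library. Its log2 fold change was -1.03 ± 0.24 (SE, adjusted p = 0.165 by edgeR and 0.0323 by DESeq2). Cd63, a tetraspanin of late endosomes, lay at 26.7, 37.1 and 63.2 CPM in wildtype and 13.3, 19.6 and 33.0 CPM in homozygous livers, at -0.98 ± 0.22 (SE). Gpnmb, a glycoprotein of lipid-loaded macrophages, had the widest spread, from 5.78 to 58.8 CPM in wildtype and from 2.05 to 17.6 CPM in homozygous livers, at -1.92 ± 0.50 (SE). Clec7a, the receptor for fungal glucans, was at -0.94 ± 0.24 (SE) and Cd68, a lysosomal macrophage marker, at -0.64 ± 0.17 (SE).

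DESeq2 called 4 of the 18 lipid-associated macrophage genes (Cd63, Trem2, Clec7a and Gpnmb), and 13 had an unadjusted edgeR p under 0.05. Gpnmb was not called by DESeq2 without the low-count filter (adjusted p = 0.0554), and its log2 fold change was -0.65 in higher-numbered libraries and -0.76 without wildtype libraries 2 and 3. The list's median was -0.54, and it was -0.68 in lower-numbered libraries, -0.30 in higher-numbered libraries and -0.36 without wildtype libraries 2 and 3. Summed, the list took 1790 to 2906 CPM in wildtype and 1691 to 2106 CPM in homozygous livers. By the levels above, Trem2, Cd63 and Gpnmb made up a small part of this sum. The list also holds Ctsb, Ctsd and Plin2, and the cells that made the rest cannot be told in whole liver. All 11 monocyte genes were below 0 and 8 had an unadjusted p under 0.05, with a median of -0.53 that was -0.89 in lower-numbered and -0.16 in higher-numbered libraries. Ccr2, the receptor by which monocytes enter the liver, was at -0.89 ± 0.26 (SE) but at 0.02 in higher-numbered libraries, and Cx3cr1 was at -0.94 ± 0.28 (SE). The summed level of the monocyte list was 119 to 342 CPM in wildtype and 99.9 to 197 CPM in homozygous livers, so the groups overlapped.

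Resident Kupffer cells, the macrophages seeded before birth, gave smaller values with another order between library numbers. Clec4f, which in mice is restricted to Kupffer cells, lay at 155, 168 and 217 CPM in wildtype and 110, 143 and 197 CPM in homozygous livers, at -0.23 ± 0.15 (SE, unadjusted p = 0.127). The complement genes C1qa, C1qb and C1qc were at -0.37, -0.39 and -0.35 (SE 0.12, 0.12 and 0.13), and Csf1r, the receptor for macrophage growth factor, at -0.37 ± 0.13 (SE). These 4 were the list's only members at an unadjusted p under 0.05. Which macrophages their values came from cannot be told in whole liver. Timd4, a receptor of long-resident Kupffer cells, was at 0.09 ± 0.24 (SE). The median of the 15 Kupffer cell genes was -0.26, with 0.04 in lower-numbered and -0.35 in higher-numbered libraries.

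Antigen presentation, chemokine and inflammatory genes were lower by value, mainly in the lower-numbered libraries. The median log2 fold changes of these 3 lists were -0.47, -0.42 and -0.46 over all 14 libraries, -0.83, -0.67 and -0.68 in lower-numbered libraries and -0.09, -0.09 and -0.07 in higher-numbered ones. Without wildtype libraries 2 and 3 they were -0.16, -0.23 and -0.14. All 11 dendritic cell and MHC class II genes were below 0, 7 at an unadjusted p under 0.05, with Cd74, the class II invariant chain, at -0.46 ± 0.16 (SE), H2-Aa at -0.49 ± 0.18 (SE), H2-Ab1 at -0.46 ± 0.18 (SE) and Ccr7, the lymph node homing receptor, at -0.58 ± 0.21 (SE). Ccl2, the ligand of Ccr2, lay at 4.41, 6.58 and 13.6 CPM in wildtype and 1.87, 3.84 and 5.08 CPM in homozygous livers. For Ccl2, 5 homozygous libraries were below every wildtype library, and its log2 fold change was -1.05 ± 0.24 (SE, adjusted p = 0.165 by edgeR and 0.0296 by DESeq2). In higher-numbered libraries alone Ccl2 was at -0.54, and without wildtype libraries 2 and 3 at -0.55. Of 16 tested chemokines 5 were lower at an unadjusted p under 0.05, including Ccl6 at -0.81 ± 0.20 (SE), Cxcl14 at -0.72 ± 0.20 (SE) and Cxcl16 at -0.51 ± 0.14 (SE). Inflammatory signalling had 9 of 21 genes lower at that p, with Tlr7, a sensor of single-stranded RNA, at -0.79 ± 0.19 (SE), Vcam1, an adhesion molecule for leukocytes, at -0.60 ± 0.15 (SE, DESeq2 adjusted p = 0.0465, or 0.0523 without the low-count filter) and Nlrp3, the inflammasome sensor, at -0.70 ± 0.24 (SE). Interferon response genes stood near the middle of all genes, with a median of -0.05 and Oas1a, one of a family of close copies, at -0.45 ± 0.17 (SE). The part of the macrophage and monocyte marker levels above in these values was not tested.

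Single genes of leukocytes, vessels and matrix outside these lists also had low p-values. Rgs1, a brake on chemokine receptor signalling in leukocytes, lay at 2.25, 7.95 and 9.58 CPM in wildtype and 0.957, 2.53 and 5.01 CPM in homozygous livers. The wildtype minimum was library 5 alone, since the next lowest wildtype library held 6.86 CPM, above every homozygous library. Its log2 fold change was -1.50 ± 0.31 (SE, adjusted p = 0.165 by edgeR and 0.00667 by DESeq2). Cd93, a receptor of endothelial and myeloid cells, was at -0.70 ± 0.15 (SE), and Cmklr1, the chemerin receptor of macrophages, at -0.76 ± 0.18 (SE). Ggta1, a galactosyltransferase, was at -0.68 ± 0.15 (SE), Ccdc80, a matrix protein, at -0.64 ± 0.15 (SE) and Arpc1b, a subunit of the Arp2/3 actin complex of blood cells, at -0.37 ± 0.08 (SE). Fam129b, also called Niban2, lay at 13.22, 17.03 and 24.6 CPM in wildtype and 9.84, 11.7 and 13.20 CPM in homozygous livers, a narrow gap without overlap, at -0.61 ± 0.12 (SE, adjusted p = 0.103 by edgeR and 0.00667 by DESeq2). In higher-numbered libraries Rgs1 was at -1.03, Cd93 at -0.33, Cmklr1 at -0.54, Ggta1 at -0.46, Ccdc80 at -0.32, Arpc1b at -0.26 and Fam129b at -0.46. Without wildtype libraries 2 and 3 they were, in the same order, at -1.29, -0.42, -0.57, -0.43, -0.40, -0.25 and -0.41.

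Lists for lymphocytes, neutrophils, bile duct and dividing cells had no member at an unadjusted p under 0.05. Their lowest-p members were Cd4 of helper T cells at -0.40 ± 0.27 (SE), Ighm of B cells at -0.17 ± 0.23 (SE), S100a9 of neutrophils at -0.61 ± 0.42 (SE) and Krt23 of bile duct at -0.56 ± 0.39 (SE). Mcm3, a subunit of the replication helicase, was at 0.47 ± 0.24 (SE), while the median of 19 cell division genes was -0.26. Endothelial genes had 1 of 14 members at that p, Plvap, the diaphragm protein of fenestrated vessels, at -0.36 ± 0.14 (SE). Their summed level was 474 to 539 CPM in wildtype and 306 to 557 CPM in homozygous livers. Of 7 exocrine pancreas markers none was tested, Cpa1, Prss2 and Clps were at 0 in all 14 libraries, and the summed level was at most 0.74 CPM. Of 7 adipocyte markers 2 were tested, Lep and Retn were at 0, and Adipoq reached 0.12 CPM. Their summed level was 859 to 2576 CPM in wildtype and 1316 to 3613 CPM in homozygous livers, and came from other members.

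**Figure D4:**
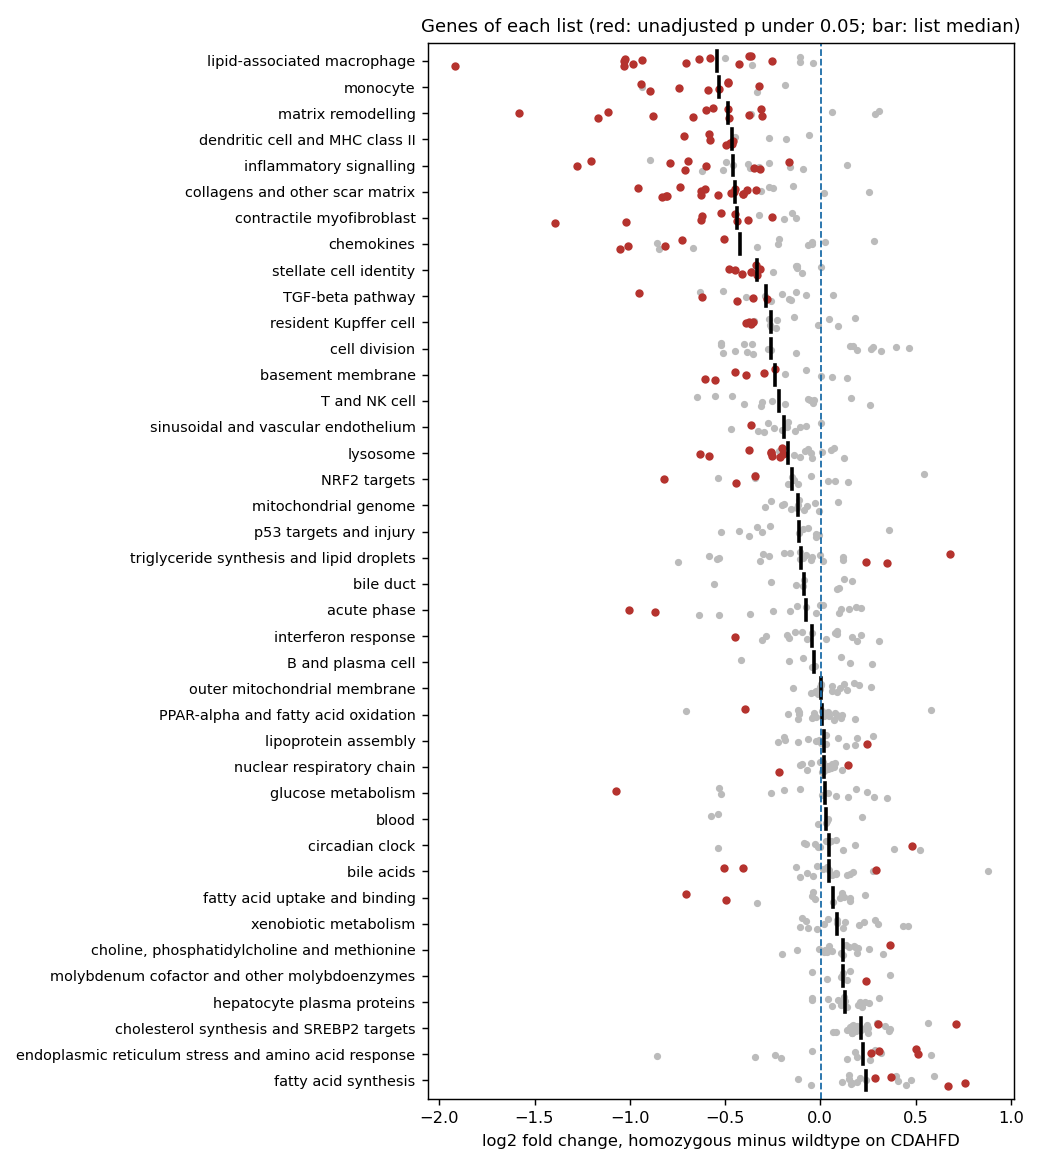
Log2 fold change of homozygous against wildtype livers (x axis) for each tested gene of the lists with at least 7 tested members (y axis). Grey points are genes with an unadjusted edgeR p of 0.05 or more, red points those below, black bars list medians and the dashed line the median of all tested genes (0.01); medians run from -0.54 (lipid-associated macrophage) to 0.24 (fatty acid synthesis).

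Lipid synthesis genes were mostly above 0, though few had a low p. Srebf1, the transcription factor of fatty acid synthesis, lay at 112, 163 and 217 CPM in wildtype and 190, 254 and 344 CPM in homozygous livers, with 7 of 8 homozygous libraries above every wildtype library. Its log2 fold change was 0.67 ± 0.20 (SE, adjusted p = 0.234 by edgeR), at 1.07 in lower-numbered and 0.35 in higher-numbered libraries. Fasn, the fatty acid synthase, lay at 131, 178 and 257 CPM in wildtype and 235, 280 and 497 CPM in homozygous livers, at 0.76 ± 0.26 (SE). The elongases Elovl2 and Elovl5 were at 0.37 ± 0.16 (SE) and 0.29 ± 0.13 (SE). Of 19 fatty acid synthesis genes 17 were above 0 (51.6% of all tested genes were), 4 of them at an unadjusted p under 0.05, with a median of 0.24 that was 0.49 in lower-numbered and 0.19 in higher-numbered libraries. Mid1ip1, a partner that promotes the activity of acetyl-CoA carboxylase, lay at 32.5, 41.0 and 52.2 CPM in wildtype and 56.3, 63.6 and 91.7 CPM in homozygous livers, without overlap, at 0.70 ± 0.18 (SE, adjusted p = 0.181 by edgeR and 0.0391 by DESeq2).

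Cholesterol synthesis genes shared this sign. All 25 were above 0, with a median of 0.22, but 2 had an unadjusted p under 0.05, among them Insig1. Insig1, the sterol-regulated anchor of SREBP in the endoplasmic reticulum, lay at 121, 175 and 246 CPM in wildtype and 172, 307 and 446 CPM in homozygous livers, with 6 of 8 homozygous libraries above every wildtype library. It was at 0.71 ± 0.21 (SE), and at 0.66 within either range of library numbers. The list's median was 0.47 in lower-numbered and 0.05 in higher-numbered libraries.

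The remaining genes with the lowest p on the higher side had varied roles. Nags, which makes the activator of the urea cycle, was at 0.44 ± 0.13 (SE), Fahd1, a mitochondrial decarboxylase, at 0.29 ± 0.08 (SE) and Tmem41b, a lipid scramblase of the endoplasmic reticulum, at 0.28 ± 0.07 (SE). Rtp3, a transmembrane protein of liver, lay without overlap at 39.1, 43.2 and 47.9 CPM in wildtype and 48.0, 55.1 and 66.7 CPM in homozygous livers. Chst13, a chondroitin sulfotransferase, was at 0.63 ± 0.18 (SE) and Smim6 at 0.68 ± 0.18 (SE). Gm8326, a predicted gene whose reads may be shared with a copy elsewhere, was at 1.15 ± 0.32 (SE), but at -0.44 in lower-numbered and 1.65 in higher-numbered libraries. Of the 12 higher genes with the lowest p, DESeq2 called 5 (Slc22a7, Mid1ip1, Tmem41b, Angptl8 and Fahd1), and its only other higher call was Srsf1, a splicing factor, at 0.18 ± 0.06 (SE). Without the low-count filter DESeq2's higher calls were 3, and Tmem41b, Angptl8 and Fahd1 were no longer called (adjusted p = 0.0536, 0.0554 and 0.0554).

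Genes that store, burn or move fat were mixed. Of 22 tested genes for triglyceride synthesis and lipid droplets 16 were below 0, and the 3 at an unadjusted p under 0.05 were higher: Agpat2 at 0.24 ± 0.09 (SE) and Gpam at 0.35 ± 0.16 (SE), both acyltransferases of glycerolipid synthesis, and G0s2, an inhibitor of the lipase ATGL, at 0.68 ± 0.31 (SE). Angptl8, a feeding-induced regulator of lipoprotein lipase, lay at 9.02, 18.2 and 50.2 CPM in wildtype and 16.04, 63.2 and 116 CPM in homozygous livers. For Angptl8, 5 homozygous libraries exceeded the wildtype maximum, and its log2 fold change was 1.47 ± 0.39 (SE, adjusted p = 0.202 by edgeR and 0.0489 by DESeq2). Lpl, the lipase it regulates, which macrophages also make, was at -0.70 ± 0.22 (SE) and Fabp4, a fatty acid binding protein of fat cells, vessels and macrophages, at -0.49 ± 0.20 (SE). Genes of fatty acid oxidation under PPAR-alpha had a median of 0.01, with Ucp2, a mitochondrial carrier, at -0.40 ± 0.11 (SE) and Cpt1a, which admits fatty acids to mitochondria, at -0.12 ± 0.18 (SE).

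In phosphatidylcholine, lipoprotein and bile acid pathways, single genes lay on either side of 0. Pemt, which makes phosphatidylcholine without dietary choline, was at 0.12 ± 0.10 (SE), and Cbs, which takes homocysteine into cysteine synthesis, at 0.36 ± 0.17 (SE). Tm6sf2, which helps load lipid onto lipoproteins, was at 0.25 ± 0.11 (SE). Abcc3, an exporter of conjugated bile acids into blood, lay at 179, 212 and 223 CPM in wildtype and 123, 156 and 192 CPM in homozygous livers. Of the 8 homozygous libraries 7 were below the wildtype minimum, and Abcc3 was at -0.40 ± 0.14 (SE), with -0.37 and -0.39 in lower-numbered and higher-numbered libraries. Abcc4, another such exporter, was at -0.50 ± 0.22 (SE), Abcb11, the bile salt export pump into bile, at 0.29 ± 0.13 (SE) and Cyp7a1, the rate-limiting enzyme of bile acid synthesis, at -0.10 ± 0.37 (SE). Slc22a7, a hepatocyte organic anion transporter, lay at 22.4, 31.1 and 45.1 CPM in wildtype and 39.6, 49.7 and 86.8 CPM in homozygous livers, at 0.83 ± 0.18 (SE, adjusted p = 0.165 by edgeR and 0.0101 by DESeq2), with 0.77 and 0.72 within the lower-numbered and higher-numbered libraries.

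Some chaperone genes of the endoplasmic reticulum were higher by value, Hspa5 in both ranges of library numbers. Hspa5, the main chaperone of this compartment, lay at 464, 516 and 627 CPM in wildtype and 499, 809 and 901 CPM in homozygous livers, with 7 of 8 homozygous libraries above every wildtype library. Its log2 fold change was 0.51 ± 0.16 (SE, adjusted p = 0.239 by edgeR), with 0.57 in lower-numbered and 0.53 in higher-numbered libraries. Hyou1, a second chaperone, was at 0.50 ± 0.17 (SE), Pdia4, a disulfide isomerase, at 0.31 ± 0.13 (SE) and Xbp1, a transcription factor of the unfolded protein response, at 0.27 ± 0.12 (SE). These 4 of the 16 listed genes had an unadjusted p under 0.05. Of the 16, 11 were above 0 and 5 below, from -0.86 to 0.58. The list's median was 0.23, with 0.06 in lower-numbered and 0.31 in higher-numbered libraries. The stress-induced Ddit3 was at 0.14 ± 0.32 (SE), Atf3 at -0.21 ± 0.38 (SE) and Trib3 at -0.34 ± 0.39 (SE). The coat protein gene Sec23b, which carries cargo out of this compartment, was at 0.52 ± 0.15 (SE), and Scfd2, also named for membrane traffic, lay without overlap at 5.29, 6.26 and 6.46 CPM in wildtype and 7.08, 7.81 and 9.26 CPM in homozygous livers.

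The unfolded protein response acts through the ER stress response element, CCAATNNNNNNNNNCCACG. On either strand of the 250 bases before the start, it stood in 2 of the 15 promoters found for the list (13.33%) and in 35 of 27025 genes (0.13%). The list was drawn up for this kind of response and its share rests on 2 genes. An enrichment was not tested. The matches were in Hspa5 and in Creld2, an ER-resident protein gene at 0.29 ± 0.25 (SE) on the log2 scale. The Hspa5 promoter is shown because that gene led the list, with the element in capitals, 5′ to 3′ on the plus strand. The other listed promoters lack these exact letters in the window, which says nothing of the factor.
Hspa5 (GRCm38.p6, chr2:34771840-34772089): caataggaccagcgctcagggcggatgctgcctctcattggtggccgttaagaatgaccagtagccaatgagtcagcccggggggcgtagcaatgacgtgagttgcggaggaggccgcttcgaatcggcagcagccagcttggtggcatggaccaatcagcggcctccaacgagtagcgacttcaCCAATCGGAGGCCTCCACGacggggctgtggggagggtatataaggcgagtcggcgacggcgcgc

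Mitochondrial transcripts, of interest because mARC sits on the mitochondrial surface, overlapped between the groups. Transcripts of the mitochondrial genome took 10.1% ± 2.33 (SD, n = 6) of counts in wildtype and 9.29% ± 1.64 (SD, n = 8) in homozygous livers, a difference of -0.80 percentage points (two-sided exact permutation p = 0.444). Within the lower-numbered libraries it was -1.74 points (exact permutation p = 0.4) and within the higher-numbered ones 0.17 points (exact permutation p = 0.881). Nuclear genes of the respiratory chain had a median log2 fold change of 0.02, where Cycs, or cytochrome c, was at 0.14 ± 0.07 (SE) and Ndufa1, of complex I, at -0.22 ± 0.10 (SE). Outer membrane genes had a median of 0.01 and no member at an unadjusted p under 0.05. Lysosomal genes had 9 of 20 members lower at that p, with Ctss at -0.63 ± 0.18 (SE), Ctsk at -0.59 ± 0.19 (SE) and Ctsa at -0.21 ± 0.08 (SE), all proteases or peptidases of lysosomes. The macrophage list above shares some lysosomal genes.

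Other hepatocyte programmes had few members that stood apart. Hepatocyte plasma protein genes had a median of 0.13 with no member at an unadjusted p under 0.05. Of acute phase genes, Lcn2, an iron-siderophore binding protein, was at -1.01 ± 0.38 (SE), but at -0.09 within the higher-numbered libraries, and Orm2, one of a family of orosomucoid copies, at -0.87 ± 0.36 (SE), with the opposite sign, 0.30, in higher-numbered libraries. Hmox1, the heme oxygenase under NRF2, lay at 34.8, 40.5 and 60.6 CPM in wildtype and 21.05, 33.1 and 43.5 CPM in homozygous livers, at -0.44 ± 0.14 (SE), while Nqo1, a classical NRF2 target, was at -0.11 ± 0.19 (SE). Igfbp1, a fasting-induced binding protein of insulin-like growth factors, was at -1.07 ± 0.50 (SE), with -2.54 in lower-numbered and -0.53 in higher-numbered libraries. Cry1, a repressor of the circadian clock, was at 0.48 ± 0.22 (SE). The 15 clock genes had a median of 0.50 in lower-numbered and -0.21 in higher-numbered libraries, and the hour of collection is not given in the labels.

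The largest differences by size among genes at an unadjusted p under 0.05 were in variable genes. Ppp1r3g, a glycogen-targeting subunit of protein phosphatase 1, lay at 3.12, 8.15 and 27.4 CPM in wildtype and 0.336, 1.87 and 4.22 CPM in homozygous livers, at -2.38 ± 0.75 (SE, adjusted p = 0.275 by edgeR), and at -2.08 within either range of library numbers. A1bg, a plasma glycoprotein gene, lay at 28.9, 57.2 and 72.2 CPM in wildtype and 49.8, 113 and 652 CPM in homozygous livers, at 1.95 ± 0.61 (SE). Of the 8 homozygous libraries 5 exceeded the wildtype maximum and the others lay within the wildtype range. Serpina4-ps1, annotated as a pseudogene, and Hsd3b5, one of a family of near-identical steroid dehydrogenases, were at 2.50 ± 0.91 (SE) and 2.31 ± 0.85 (SE) from wildtype medians under 1 CPM, and reads of such copies cannot be assigned with certainty. Chrna4 was at 1.57 ± 0.60 (SE) and Clic3 at 1.55 ± 0.68 (SE).

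Values in the heterozygous and diet comparisons, which use the same 6 wildtype CDAHFD libraries, are set beside these without comparing them. The log2 fold change of heterozygous against wildtype livers on CDAHFD was -0.55 ± 0.15 (SE) for Mtarc1, -0.66 ± 0.20 (SE) for Tagln, -0.41 ± 0.19 (SE) for Col3a1, -0.11 ± 0.24 (SE) for Trem2, 0.31 ± 0.20 (SE) for Srebf1 and 0.54 ± 0.16 (SE) for Hspa5. The list medians in heterozygous livers were -0.24 for scar matrix, -0.33 for contractile, -0.15 for lipid-associated macrophage, 0.25 for fatty acid synthesis and 0.19 for ER stress genes. Wildtype livers on CDAHFD against chow gave log2 fold changes of 2.28 for Tagln, 2.12 for Col3a1, 3.39 for Trem2, -0.63 for Srebf1, -1.91 for Insig1 and -0.30 for Hspa5. A high or low wildtype CDAHFD library moves all 3 comparisons at once.

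**Figure D5:**
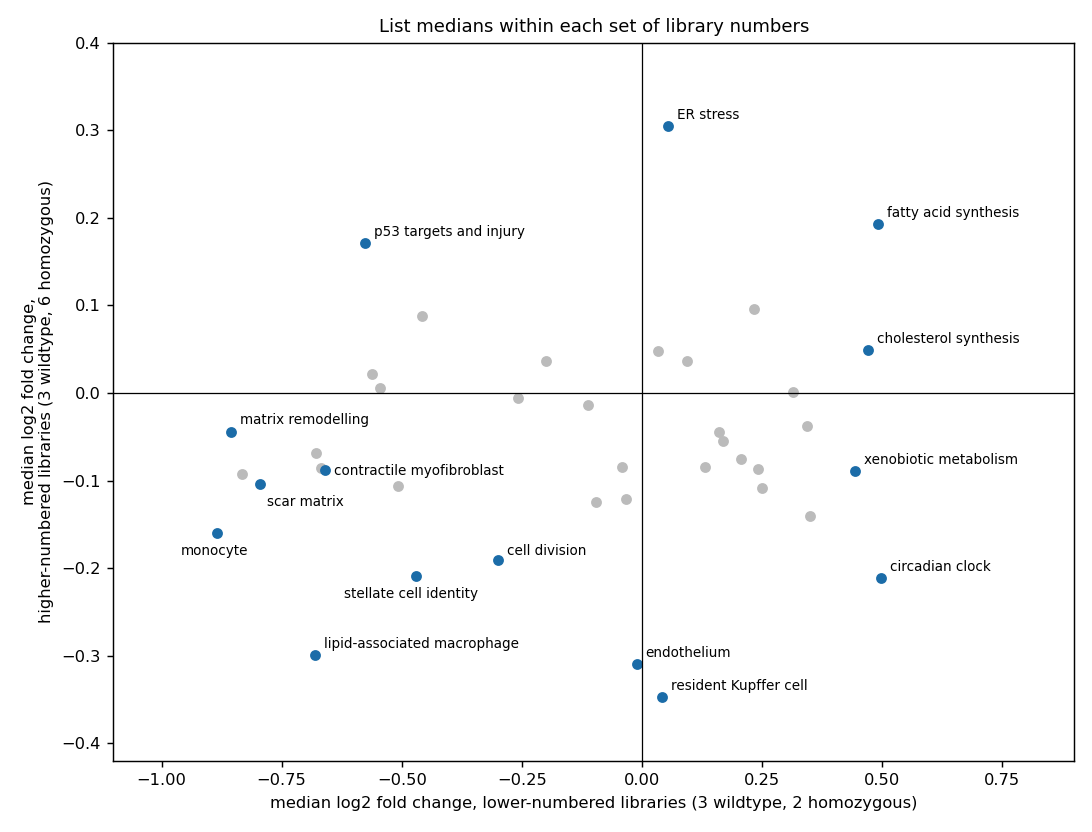
Median log2 fold change of each gene list (homozygous against wildtype) within the lower-numbered libraries (x axis; 3 wildtype, 2 homozygous) and within the higher-numbered libraries (y axis; 3 wildtype, 6 homozygous). The axes have different scales, each point is a list of at least 7 tested genes and named lists are blue; scar matrix lies at -0.80 and -0.10, the Kupffer cell list at 0.04 and -0.35, and the ER stress list at 0.06 and 0.31.

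The plot of list medians by library number shows that the medians of the matrix, monocyte and contractile lists were lower in the lower-numbered than in the higher-numbered libraries. With the library number range as a term in the model, 608 genes were lower and 401 higher at an unadjusted p under 0.05, and Mtarc1 remained the edgeR call. Within the higher-numbered libraries alone the counts were 228 lower and 308 higher, and without wildtype libraries 2 and 3 they were 423 and 365. A test of whether the genotype difference itself depended on the library number range called 0 of 16203 genes by edgeR (838 at an unadjusted p under 0.05) and 1 by DESeq2, Pdk4, a fasting-induced kinase that inhibits pyruvate dehydrogenase, with an interaction of -2.97 on the log2 scale (adjusted p = 0.013). The part of the library numbers in the results was not tested beyond these fits.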

How the data were processed

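Total liver RNA was column-purified and turned into sequencing libraries with a NEBNext Ultra II kit, per the labels' protocols. The authors deposited estimated counts for 55642 gene IDs, of which 54.39% of values above 0 were whole. Per the submitters' processing notes, tools included cutadapt 3.5 and Salmon 1.4.0 and builds GRCm39 and mm39; use of strand in counting is not stated there. Symbols came from GENCODE M21 (GRCm38, 51475 IDs, 92.51%) and promoters from RefSeq GRCm38.p6. Counts were rounded and fitted with edgeR 4.0.16 (TMM, filterByExpr, robust quasi-likelihood, 26 libraries, 4 groups, Benjamini-Hochberg). DESeq2 1.42.0 and limma 3.58.1 were alternatives, among other scalings, filters, sample choices and left-out libraries. Tested on simulated data (16853 genes), the edgeR procedure found 55.2% of genes changed 1.5-fold, 73.1% of those changed 2-fold and 89.4% of those changed 4-fold for homozygous against wildtype. It also called 8 unchanged genes. Simulated libraries varied independently and held no difference between ranges of library numbers, so these shares may not hold for the real libraries.

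Members and lists (47) were chosen with earlier results of these data known. Genes named by rule were Mtarc1, its paralog Mtarc2 and the 2 tested genes on each side of Mtarc1, Mtarc2 being among these. Also named, at a mean of at least 1 CPM, were the 12 lower and 12 higher genes with the lowest p. To these came the 6 largest negative and 6 largest positive fold changes (at least 1 CPM, unadjusted p under 0.05). The rule also took the 10 lowest DESeq2 adjusted p. It took up to 4 members per list at an unadjusted p under 0.05, or the list's lowest-p member. Other names were chosen after their values were seen: Cyb5b, Cyb5r3, Cnn2, Creld2, Clec4f, Timd4, Cpt1a, Pemt, Cyp7a1, Ddit3, Atf3, Trib3, Nqo1, Srsf1, Pdk4, the sex-linked genes and genes without overlap. The sample numbers are not said to pair animals, so no block was used. Deviations of same-numbered samples of the 2 groups had correlations of -0.245 to 0.303 over 6 pairs.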

Additional observations from a re-analysis of the deposited data

Results flagged for a closer look

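Within a group of 6 or 8 libraries, a single library stood farther from the rest than Dixon's 95% limit allows in 10 of 268 groups of values (3.73%), and chance alone marks about 1 in 20. In wildtype livers, Rgs1 was at 2.25 CPM in library 5 (others 6.86 to 9.58), Serpina4-ps1 at 0.154 CPM in library 4 (others 0.561 to 1.08), Dcn at 237 CPM in library 2 (others 160 to 181) and Tlr7 at 5.94 CPM in library 3 (others 2.66 to 3.59). Wildtype library 2 also had 97.69% of its counts in IDs with a symbol (others 99.23% to 99.58%), and a single ID without a symbol took 2.05% of its counts. In homozygous livers, Ggta1 was at 5.08 CPM in library 1 (others 3.04 to 3.88), Atp6v0d2 at 26.3 CPM in library 2 (others 13.9 to 18.1) and Mid1ip1 at 91.7 CPM in library 6 (others 56.3 to 70.4). Homozygous library 4 was low for Colec11, at 20.4 CPM (others 28.1 to 37.0), and high for Phlda3, at 11.2 CPM (others 2.83 to 5.45).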

How the results depend on the processing

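Of 3799 values of 131 named genes under 29 alternatives, 3720 kept their sign and side of the adjusted threshold, 58 newly passed it and 21 (12 genes) took the opposite sign. Mtarc1 was called in every edgeR, voom and DESeq2 fit run. The count of called genes (1) was 61 with DESeq2, 47 with DESeq2 unfiltered, 2 in lower-numbered libraries (Mtarc1 and Rgs1) and 1 to 4 with each replicate left out. The lower count at an unadjusted p under 0.05 (1038) was 608 with the number range as a term, 228 in higher-numbered libraries, 423 without wildtype libraries 2 and 3 (chosen after seeing the data, as was unfiltered DESeq2) and 704 to 1245 with each replicate left out. The higher count (667) was 406 by library totals, 401 with the term, 308 in higher-numbered libraries, 365 without those 2 libraries and 476 to 827 leaving one out. Mtarc1 at 24.8% of wildtype in lower-numbered libraries could not reach p under 0.05 with so few. The mitochondrial share difference was 0.168 points in higher-numbered libraries. The interaction test called 1 gene with DESeq2.

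Opposite signs on the log2 scale were, in lower-numbered libraries, Mtarc2 0.17, C130074G19Rik 0.0806, Gm8326 -0.44 and Atp6v0d2 0.0402, and in higher-numbered libraries Lox 0.13, Ltbp2 0.24, Ccr2 0.022, S100a9 0.10, Alb -0.002, Orm2 0.30, Car3 -0.10 and Wt1 0.68. Wt1 was also at 0.23 with the term, -0.3426 to 0.1783 leaving one out and 0.56 without wildtype libraries 2 and 3. C130074G19Rik was at -0.1119 to 0.0498 leaving one out. The cause was not tested. The replicate number was also tried as a block, though the numbers are not said to pair the samples. Of 6 wildtype libraries, 1 correlated best with its own number. With this block 1 gene was called, and 1052 were lower and 600 higher at an unadjusted p under 0.05. C130074G19Rik (0.0191) and Wt1 (0.0604) changed sign. Genes under about 1 CPM rest on few reads.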
